A study of Mus musculus with 10 samples.

Results

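Respiratory complex I (NADH:ubiquinone oxidoreductase) was examined through its nuclear genes, which carry symbols beginning with Nduf, in RNA-seq of pancreatic islets, the endocrine cell clusters of the pancreas. The members were all genes of the count table with an Nduf symbol, without genes typed as pseudogenes in GENCODE M21. They numbered 47 of 52178 genes, 39 named as subunits and 8 as assembly factors (Ndufaf). Ndufb1-ps was kept, because GENCODE M21 types it as a noncoding RNA and not as a pseudogene, while RefSeq lists it as the protein-coding gene Ndufb1. Left out as pseudogenes by the GENCODE type were 4 genes (Ndufb4c, Ndufa11b, Ndufs6b and Ndufab1-ps). Of these, RefSeq types Ndufb4c as protein coding, and Ndufb4c had reads in every library, which are given beside those of Ndufb4. There were 5 exercise libraries (exercise 6 to 10) and 5 sedentary libraries (sedentary 1 to 5), all from islets of male C57Bl/6 mice that were retired breeders. Mice of the exercise group were acclimatized over 3 days and then ran on a treadmill inclined by 5 degrees. Each run lasted 1 h at a speed of 17 cm/s, on 5 days of each of the 2 weeks. No genotype, agent or other treatment is given for either group, and the age is given only as retired breeder. Islets of both groups were hand-picked after collagenase digestion and put in medium with 11 mM glucose. The labels do not tie a library to an animal, so the spread that the tests use is that between libraries and may be in part technical.

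Complex I takes electrons from NADH in the mitochondrial matrix, passes them along iron-sulfur clusters to ubiquinone, and pumps protons across the inner membrane. Its matrix arm has an N module that binds NADH and a Q module that holds the ubiquinone site. The membrane arm has a proximal and a distal part that pump protons. A few core subunits are conserved from bacteria, some encoded in the nucleus and some in mitochondrial DNA, while the accessory subunits stabilise the complex. Assembly factors bind intermediates while the arms are joined and are absent from the finished enzyme. In beta cells, respiration links glucose metabolism to insulin release through ATP. The acinar cells, enterocytes and other cells that can accompany islets also carry complex I.

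Promoter sequences are shown because transcription of complex I genes is known to involve nuclear respiratory factor 1 (NRF1), the ETS factor GABP and YY1. RefSeq promoters (GRCm38.p6, 250 bases before to 50 after a start) were found for 41 of the 47 members, with 43 promoters. The motifs searched on both strands were GCGCA, any base and GCGC for NRF1, CCGGAAG for ETS factors and AAGATGGC for YY1. No matches of different motifs overlapped in a member promoter. The NRF1 motif was in 10 of 43 member promoters (23.3%), against 4.60% of all 32851 promoters in the table. The ETS motif was in 6 member promoters (13.95%), against 8.86% of all. The YY1 motif was in 8 member promoters (18.6%), against 2.75% of all. Of the 7 assembly factor promoters, 2 held the NRF1, 2 the ETS and 1 the YY1 motif. Of the 36 subunit promoters, 8, 4 and 7 held these motifs, in the same order. A match describes letters in a window and not binding. The 4 promoters printed are those of the member of smallest p holding each motif and of the assembly factor of smallest p holding any. They are written 5′ to 3′ on the strand of the gene, with motif matches in capitals. They lie at chr16:37654319-37654618 on the minus strand (Ndufb4), chr8:83566508-83566807 on the plus strand (Ndufb7), chr13:114388045-114388344 on the minus strand (Ndufs4) and chr2:119662785-119663084 on the minus strand (Ndufaf1).
Ndufb4: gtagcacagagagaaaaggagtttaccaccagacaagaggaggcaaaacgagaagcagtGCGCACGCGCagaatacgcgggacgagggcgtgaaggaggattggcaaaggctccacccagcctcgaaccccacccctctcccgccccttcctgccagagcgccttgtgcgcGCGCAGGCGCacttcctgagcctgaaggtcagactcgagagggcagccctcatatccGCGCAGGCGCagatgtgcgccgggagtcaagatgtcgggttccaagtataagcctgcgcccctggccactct
Ndufb7: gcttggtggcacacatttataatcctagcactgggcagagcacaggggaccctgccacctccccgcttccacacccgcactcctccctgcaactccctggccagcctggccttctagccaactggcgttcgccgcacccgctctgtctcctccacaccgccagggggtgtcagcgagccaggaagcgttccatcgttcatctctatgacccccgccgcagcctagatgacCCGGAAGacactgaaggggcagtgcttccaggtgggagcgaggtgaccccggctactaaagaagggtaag
Ndufs4: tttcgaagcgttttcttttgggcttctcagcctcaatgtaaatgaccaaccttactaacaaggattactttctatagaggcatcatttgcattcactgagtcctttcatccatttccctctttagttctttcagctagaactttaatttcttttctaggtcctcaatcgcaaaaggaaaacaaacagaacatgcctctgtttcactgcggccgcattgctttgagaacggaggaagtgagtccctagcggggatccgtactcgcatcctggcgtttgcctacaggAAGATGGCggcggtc
Ndufaf1: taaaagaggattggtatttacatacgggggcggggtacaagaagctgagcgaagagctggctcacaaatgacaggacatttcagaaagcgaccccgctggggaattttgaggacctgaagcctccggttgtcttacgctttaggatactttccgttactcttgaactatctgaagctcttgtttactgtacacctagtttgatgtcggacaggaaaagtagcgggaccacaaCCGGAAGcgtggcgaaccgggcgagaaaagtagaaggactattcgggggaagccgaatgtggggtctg
Ndufb4 held 3 NRF1 matches, Ndufb7 and Ndufaf1 an ETS match close before the start, and Ndufs4 a YY1 match after it. In the 100 bases before the start alone, 0 of 43 member promoters held the YY1 motif, against 0.52% of all promoters. All of its matches in member promoters began 10 to 38 bases after the start, in transcribed sequence.

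The libraries differed in their islet cell markers and in markers of other cells. Library totals lay between 15081922 and 23222704 counts. Levels are in CPM, counts scaled to the library size after adjustment by trimmed mean of M-values (TMM). The 14 small intestinal markers, all detected, summed to between 288 and 842 CPM in exercise and between 3352 and 21645 CPM in sedentary libraries, with sedentary 1 and 2 at 15148 and 21645 CPM. All 14 markers were lower in exercise (edgeR adjusted p under 0.05), with all libraries and without sedentary 1 and 2. Of all genes, 11.4% and 8.68% were lower in these fits. The only intestinal marker at 0 in any library was Cdx1, in exercise 7. The 10 beta cell markers summed to 134759 to 190979 CPM in exercise libraries. They summed to 8151 CPM in sedentary 1, 37396 CPM in sedentary 2 and 136034 to 194263 CPM in sedentary 3 to 5. None of the beta markers passed the test in the 10 libraries (10 tested by edgeR, 1 at an unadjusted p under 0.05, against 33.4% of all genes). In the 8 libraries without sedentary 1 and 2, 1 beta marker passed, against 4.1% of all genes higher. It was G6pc2, higher in exercise (log2 fold change 0.85, edgeR adjusted p = 0.0121). The 4 alpha cell markers summed to 3440 to 5634 CPM in exercise libraries. They summed to 418 CPM in sedentary 1, 1817 CPM in sedentary 2 and 5318 to 14921 CPM in sedentary 3 to 5. The 16 acinar markers summed to 145807 to 386371 CPM in exercise and 65744 to 136352 CPM in sedentary libraries. Of them, 8 were higher in exercise with all libraries and 11 with 8, against 2.44% and 4.1% of all genes. The 3 duct markers summed to 9.03 to 54.3 CPM in exercise libraries, to 483 and 1008 CPM in sedentary 1 and 2, and to 52.8 to 161 CPM in sedentary 3 to 5. Of the duct markers, Krt19 and Cftr were lower in exercise with all libraries and with 8, against 11.4% and 8.68% of all genes. Sedentary 1 and 2 thus went against the islet label in their low beta and high intestinal levels. Results are therefore given with all 10 libraries and with the 8 libraries without these 2. The 8 libraries differed too. Intestinal markers summed to 3352 to 4395 CPM in sedentary 3 to 5, above every exercise library. In exercise 6 and 9 the acinar sums, 252744 and 386371 CPM, exceeded the beta sums, 183910 and 134759 CPM. The part of these cell types in the results below was not tested. In bulk samples, fewer cells of a type and less RNA per cell cannot be told apart.

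**Figure D1:**
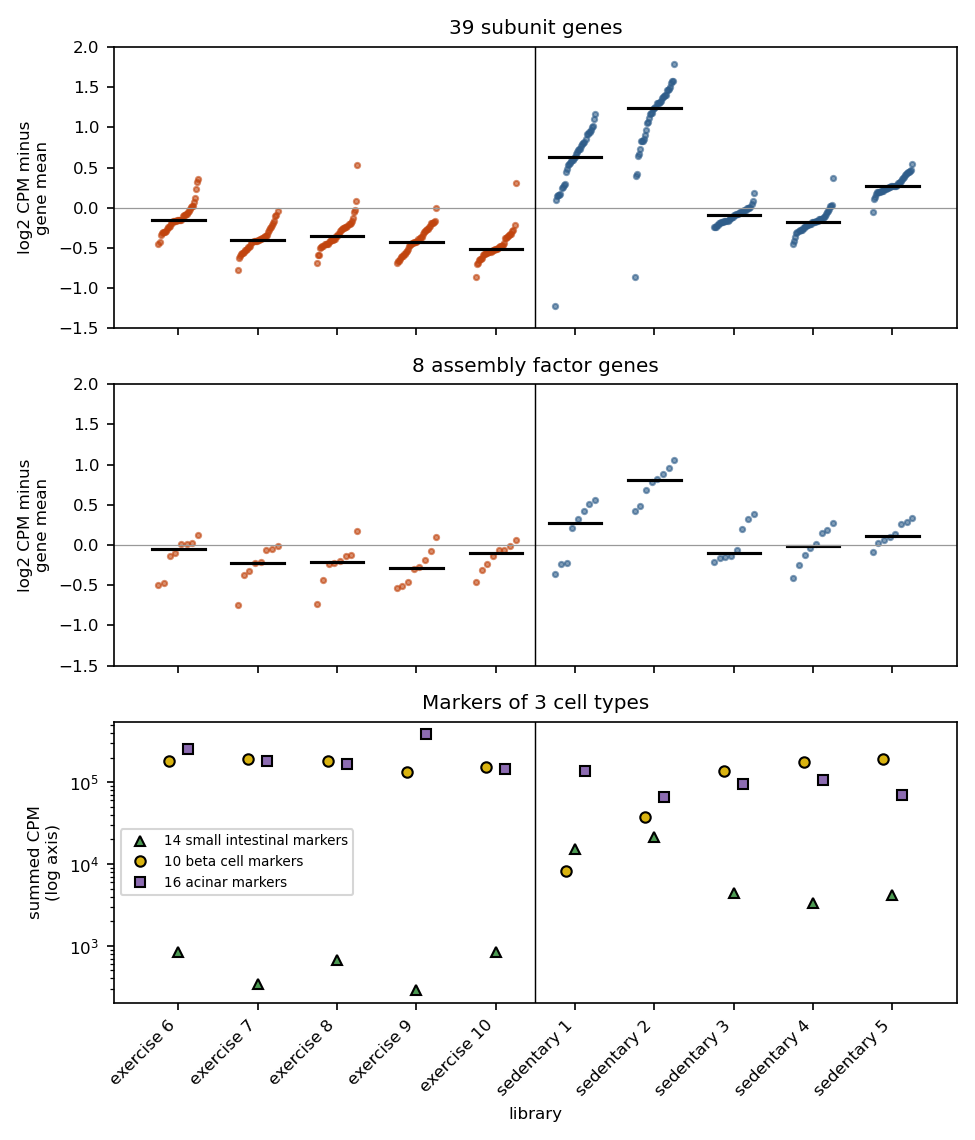
Nduf genes and cell type markers in each library. The upper panels plot, for 39 subunit genes and 8 assembly factor genes, log2 CPM minus the mean of the gene over 10 libraries (points, 1 per gene, sorted within a library; bars, medians); the lowest panel plots the summed CPM of small intestinal, beta cell and acinar markers on a log axis. Subunit medians were below 0 in all 5 exercise libraries and highest in sedentary 1 and 2, where the intestinal markers were also highest.

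Many complex I subunit genes were lower in exercise than in sedentary libraries when all 10 were tested, while none was higher. All 47 members could be tested, and the lowest count of any member in any library was 11. Of the 39 subunit genes, 13 fell, 0 rose and 26 did not pass (quasi-likelihood test of edgeR with p-values adjusted over 15298 genes, threshold 0.05). The background was 11.4% of all genes tested lower and 2.44% higher, against 33.3% of the subunits lower. At an unadjusted p under 0.05 there were 37 subunits, where the background was 33.4%. The median log2 fold change of the subunits was -0.82, against -0.00072 over all genes tested, and 38 of 39 values were below 0 (50.0% of all genes). Summed over the subunits, the level was 1362, 1147, 1179, 1124 and 1063 CPM in exercise 6 to 10. In sedentary 1 to 5 it was 2275, 3376, 1393, 1315 and 1784 CPM. Sedentary 4 lay below exercise 6, so that the groups overlapped, and the highest sums were those of sedentary 1 and 2.

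The calls rested on adjusted p-values close to the threshold. Of the 13 calls, none held without any 1 of exercise 6 to 10 or without sedentary 1, and without sedentary 2 there was 1 call. Without sedentary 5 there were 5 calls, without sedentary 3 there were 26 and without sedentary 4 there were 30. The share of all genes called lower was 6.55, 5.32, 5.16, 5.61 and 6.18% without exercise 6, 7, 8, 9 and 10. It was 6.84, 8.14, 13.4, 17.7 and 11.3% without sedentary 1, 2, 3, 4 and 5. The median log2 fold change of the subunits stayed between -0.95 and -0.54 in these 10 fits. DESeq2 called 27 subunits lower (background 14.9%) and limma-voom 0 (background 2.22%), while 37 had an unadjusted p under 0.05 in edgeR. Scaled to library totals, 37 subunits were lower (background 28.8%), and with no filter on low counts 9 were lower (background 6.2%). In the 8 libraries without sedentary 1 and 2, 5 of 39 subunits fell (Ndufs4, Ndufab1, Ndufv1, Ndufa9 and Ndufa10). This was 12.8%, against a background of 8.68% lower and 4.1% higher genes. The median log2 fold change of the subunits was then -0.34, and all 39 subunits had values below 0 (46.9% of all genes). Of the 5 calls, 4 were also among the 13, the other being Ndufv1.

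**Figure D2:**
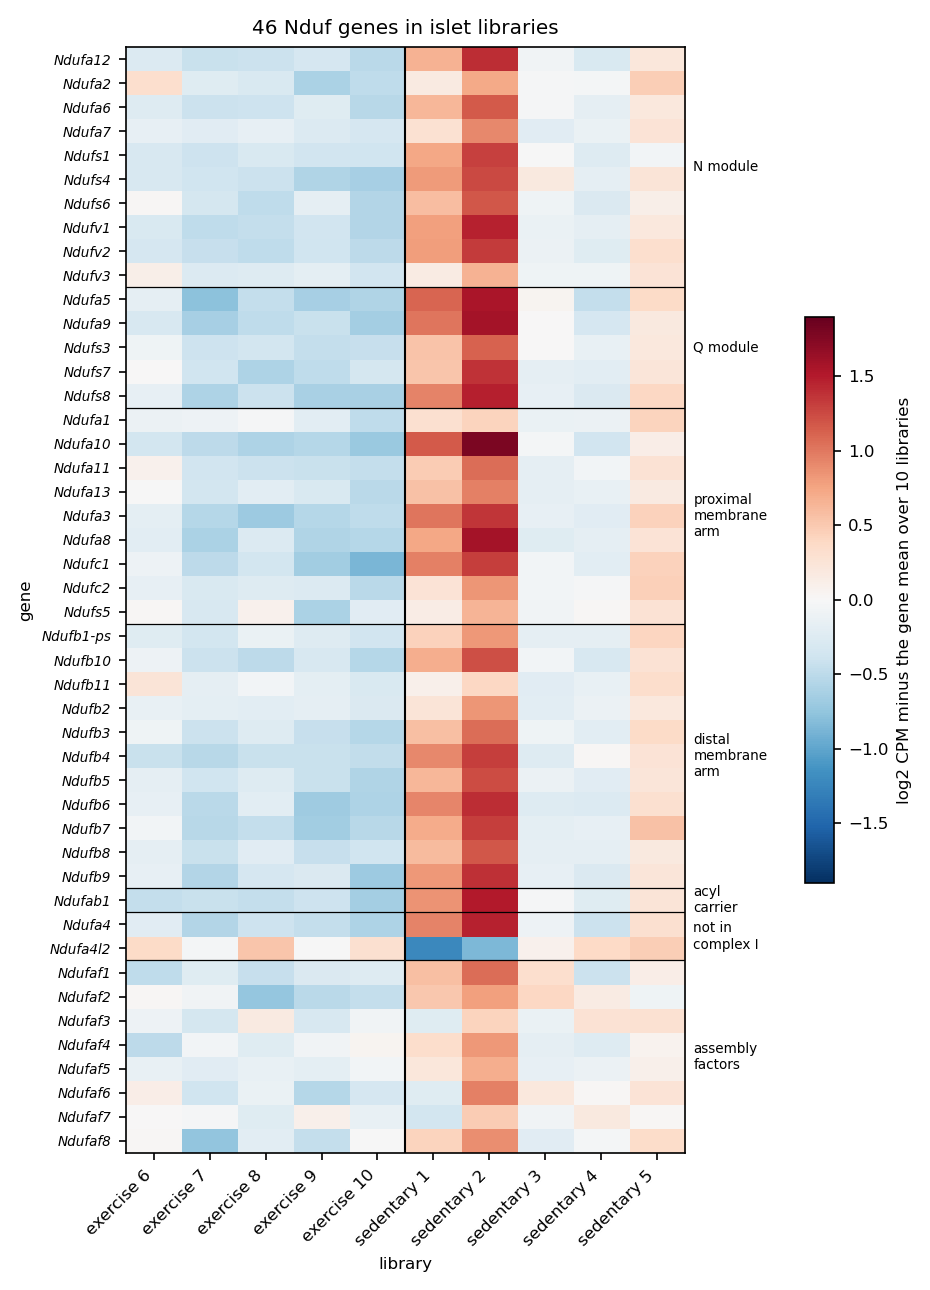
Level of 46 of the 47 Nduf genes in each library. Colour gives log2 CPM minus the mean of the gene over the 10 libraries, rows are grouped by module, and the exercise libraries stand left of the line. Sedentary 2 held the highest level of every gene shown except Ndufa4l2.

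The spread among sedentary libraries was set mostly by sedentary 1 and 2. In both of them the level was above that of each of sedentary 3 to 5 for 36 of the 47 members, 31 of 39 subunits and 5 of 8 assembly factors, against 33.7% of all genes. The ratio of the mean of sedentary 1 and 2 to the mean of sedentary 3 to 5 had a median of 1.98 over the subunits (0.363 to 3.01) and 1.43 over the assembly factors (0.988 to 1.74). The median over subunits of log2 CPM minus the gene mean was -0.16, -0.40, -0.35, -0.42 and -0.51 in exercise 6 to 10. In sedentary 1 to 5 it was 0.63, 1.24, -0.09, -0.18 and 0.27. Sedentary 4 thus lay close to exercise 6, and sedentary 5 above every exercise library.

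Within the N module, which oxidises NADH, 3 of 10 genes fell (30.0%, against 11.4% of all genes) and 7 did not pass. The median log2 fold change was -0.81. Ndufs4 (ENSMUSG00000021764), an accessory subunit that stabilises the attachment of this module and is mutated in Leigh syndrome, had the smallest p of all members. Ndufs4 was at 19.7, 18.6, 18.4, 16.3 and 15.6 CPM in exercise 6 to 10, against 42.7, 58.0, 27.7, 21.5 and 28.8 CPM in sedentary 1 to 5. Every exercise library was below every sedentary one, as for 9 of the 39 subunits and 11.4% of all genes. Its log2 fold change was -1.01 ± 0.25 (SE, edgeR adjusted p = 0.0261); it was -0.53 in the 8 libraries (edgeR adjusted p = 0.0223). Its call was lost without any 1 of exercise 6 to 10 or sedentary 1 (highest edgeR adjusted p = 0.0738).

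The NADH-binding core subunit gene Ndufv1 was at 46.8, 41.0, 41.9, 44.5 and 38.8 CPM in exercise libraries, against 97.8, 159, 52.2, 50.8 and 66.0 CPM in sedentary libraries. The groups did not overlap, and Ndufv1 missed the threshold with all libraries (log2 fold change -0.997, SE 0.30, edgeR adjusted p = 0.0510) but passed in the 8 libraries (-0.38, edgeR adjusted p = 0.0470). Ndufv2, its iron-sulfur partner in the core, fell to 41.6 ± 2.20 CPM in exercise, against 81.2 ± 38.3 CPM in sedentary libraries (SD, n = 5 each; log2 fold change -0.96, edgeR adjusted p = 0.0433). The core subunit gene Ndufs1, whose protein carries several iron-sulfur clusters, had 46.0 ± 1.44 CPM in exercise and 81.2 ± 40.2 CPM in sedentary libraries (edgeR adjusted p = 0.0753). Ndufa6, a LYR-motif subunit that binds acyl carrier protein, also fell (log2 fold change -0.80, edgeR adjusted p = 0.0494). The other accessory genes of the module did not pass, with log2 fold changes of -0.90 for Ndufa12, -0.70 for Ndufs6, -0.51 for Ndufa2 and Ndufa7, and -0.39 for Ndufv3.

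In the Q module, 3 of 6 genes fell, Ndufa5, Ndufa9 and Ndufs8 (50.0%, against 11.4% of all genes). The median log2 fold change was -0.96. Ndufs8, a core subunit with iron-sulfur clusters, was at 27.3, 20.4, 23.01, 19.9 and 19.8 CPM in exercise, against 58.9, 85.5, 27.5, 25.1 and 40.0 CPM in sedentary libraries. Sedentary 4 lay within the exercise range, and the log2 fold change, -1.10 ± 0.32 with its SE (edgeR adjusted p = 0.0453), was -0.46 in the 8 libraries (edgeR adjusted p = 0.105). Ndufa5, an accessory subunit of the matrix arm, had 13.95 ± 2.36 CPM in exercise and 32.3 ± 17.97 CPM in sedentary libraries (log2 fold change -1.21, edgeR adjusted p = 0.0435). Ndufa9, which binds NADPH where the arms meet, had 27.6 ± 2.82 CPM in exercise and 61.9 ± 35.4 CPM in sedentary libraries (log2 fold change -1.16, edgeR adjusted p = 0.0429), and also fell in the 8 libraries (-0.45, edgeR adjusted p = 0.0482).

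The other genes of the module did not pass. The core subunit gene Ndufs7 had 26.1 ± 4.36 CPM in exercise and 46.0 ± 23.6 CPM in sedentary libraries (edgeR adjusted p = 0.0860), and Ndufs3, another core subunit, had 35.3 ± 4.02 CPM in exercise and 59.8 ± 22.9 CPM in sedentary libraries (edgeR adjusted p = 0.0523). Of the 7 nuclear core subunits, 2 fell (28.6%) and 5 did not pass, with a median of -0.82. Among the 30 accessory subunits, 11 fell (36.7%) and 19 did not pass, with a median of -0.81. The share of all genes that fell was 11.4%.

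**Figure D3:**
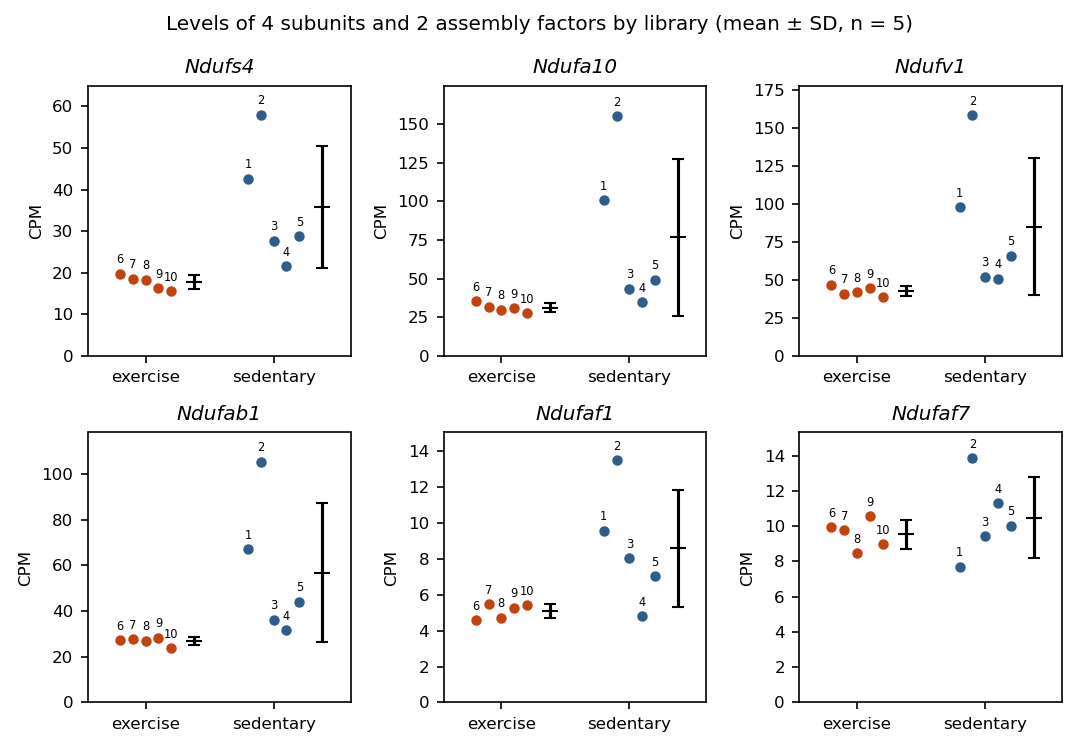
CPM of 4 subunit genes and 2 assembly factor genes in each library. Points are libraries with their numbers, and bars give the mean ± SD of 5 libraries. Ndufs4, Ndufv1 and Ndufab1 did not overlap between the groups, and Ndufa10 and Ndufaf1 overlapped through sedentary 4. Ndufaf7 had sedentary libraries below, within and above the exercise range.

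In the proximal part of the membrane arm 4 of 9 genes fell (44.4%, against 11.4% of all genes), and the median log2 fold change was -0.69. Ndufa10, a subunit with a nucleoside kinase fold, had the lowest value of all members. Ndufa10 was at 35.3, 31.9, 29.8, 30.7 and 27.6 CPM in exercise, against 100.6, 155, 43.5, 34.9 and 49.1 CPM in sedentary libraries. Sedentary 4 lay below exercise 6, and the mean of sedentary 1 and 2 was 3.01 times that of sedentary 3 to 5, the highest ratio of any member. Its log2 fold change was -1.30 ± 0.38 (SE, edgeR adjusted p = 0.0464); it was -0.43 in the 8 libraries (edgeR adjusted p = 0.0484). The small membrane subunit genes Ndufa3 (-1.10), Ndufc1 (-1.083) and Ndufc2 (-0.62) also fell (edgeR adjusted p = 0.0377, 0.0378 and 0.0425), and none of these 3 passed in the 8 libraries (edgeR adjusted p = 0.0829, 0.103 and 0.0708). Ndufc2 was the only one of the 3 without overlap, at 21.3 to 27.4 CPM in exercise and 29.3 to 54.4 CPM in sedentary libraries. Ndufa8, Ndufa11, Ndufa13, Ndufs5 and Ndufa1 did not pass, with log2 fold changes between -1.03 and -0.37.

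The distal part of the membrane arm had 2 of 11 genes that fell, Ndufb7 and Ndufb4 (18.2%, against 11.4% of all genes). Its median was -0.81. Ndufb7, a subunit on the intermembrane side, had 24.8 ± 4.24 CPM in exercise and 49.2 ± 22.0 CPM in sedentary libraries (log2 fold change -0.99, edgeR adjusted p = 0.0427). Ndufb4 had 4.11 ± 0.128 CPM in exercise and 8.48 ± 3.97 CPM in sedentary libraries (log2 fold change -1.04, edgeR adjusted p = 0.0410), with no overlap. Its reads were divided by estimation with the near copy Ndufb4c, which took 73.1 to 75.6% of their summed level in exercise and 66.0 to 73.8% in sedentary libraries, so the level of Ndufb4 itself is uncertain. The sum of both was 14.5 to 17.2 CPM in exercise and 18.2 to 45.5 CPM in sedentary libraries, again without overlap. Ndufb11, encoded on the X chromosome, was nearest to 0 of the subunits of the complex, at 55.7 ± 8.34 CPM in exercise and 63.8 ± 11.9 CPM in sedentary libraries (log2 fold change -0.20, edgeR adjusted p = 0.378). The other 8 genes of the distal part, Ndufb1-ps, Ndufb2, Ndufb3, Ndufb5, Ndufb6, Ndufb8, Ndufb9 and Ndufb10, did not pass, with values between -0.996 and -0.44.

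Ndufab1 is the mitochondrial acyl carrier protein, which serves fatty acid synthesis and iron-sulfur cluster formation as well as complex I. It was at 27.2, 27.6, 27.1, 28.3 and 23.7 CPM in exercise, against 67.0, 105, 36.3, 31.5 and 44.0 CPM in sedentary libraries. Every sedentary library was above every exercise library, and the log2 fold change was -1.09 ± 0.30 (SE, edgeR adjusted p = 0.0403); it was -0.45 in the 8 libraries (edgeR adjusted p = 0.0311).

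Another pair of genes in the family encodes proteins no longer counted as complex I subunits. Ndufa4 encodes a subunit of cytochrome c oxidase, and its paralogue Ndufa4l2 is known to be induced by hypoxia. Ndufa4 was at 53.4, 42.2, 47.3, 45.2 and 41.5 CPM in exercise, against 120.1, 172, 58.4, 46.7 and 77.0 CPM in sedentary libraries (log2 fold change -1.05, edgeR adjusted p = 0.0551). Ndufa4l2 was at 2.18, 1.63, 2.47, 1.67 and 2.10 CPM in exercise, against 0.657, 0.874, 1.77, 2.20 and 2.35 CPM in sedentary libraries. The lowest levels were those of sedentary 1 and 2, opposite to Ndufa4, and the other 3 sedentary libraries lay within the exercise range. Ndufa4l2 was the member with the highest log2 fold change (0.35, SE 0.36, edgeR adjusted p = 0.487), which was -0.04 in the 8 libraries (edgeR adjusted p = 0.925). Its share of the summed CPM of both genes was 3.57 to 4.97% in exercise libraries, 0.545 and 0.504% in sedentary 1 and 2, and 2.95 to 4.51% in sedentary 3 to 5.

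**Figure D4:**
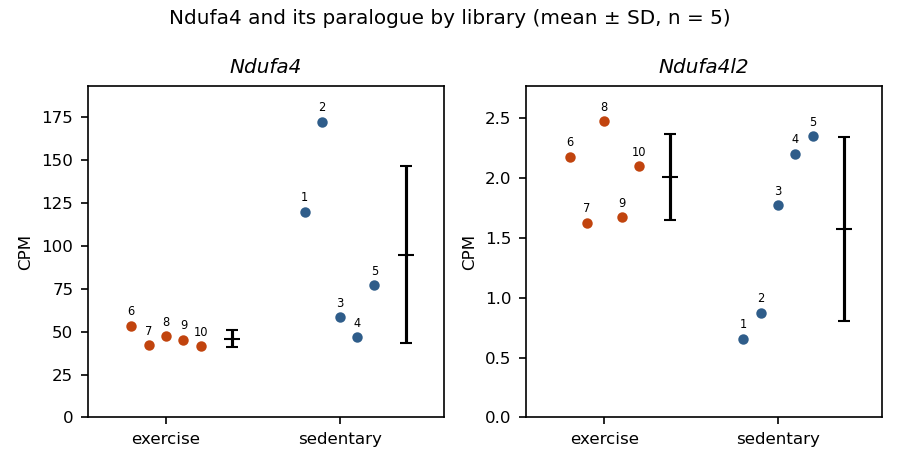
CPM of Ndufa4 and Ndufa4l2 in each library, with library numbers and the mean ± SD of 5 libraries per group. Sedentary 1 and 2 had the highest levels of Ndufa4 and the lowest levels of Ndufa4l2.

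Assembly factor genes differed less between the groups than subunit genes did by median, and none passed. Of the 8 Ndufaf genes, 0 fell and 0 rose in edgeR, against a background of 11.4% lower and 2.44% higher. At an unadjusted p under 0.05 there were 3 of the 8, where the background was 33.4%. DESeq2 called 2 of the 8 lower (background 14.9%) and limma-voom 0 (background 2.22%). The median log2 fold change of the Ndufaf genes was -0.45, against -0.82 for the subunits, and all 8 values were below 0 (50.0% of all genes). No assembly factor gene was without overlap between the groups, while 11.4% of all genes were lower in exercise without overlap. In the 8 libraries the medians were -0.26 for assembly factors and -0.34 for subunits, with 0 assembly factors called (edgeR, 0 at an unadjusted p under 0.05, against 28.3% of all genes). The difference between the sets was not tested.

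Ndufaf1, a member of the intermediate-building MCIA complex in the membrane arm, was at 4.58, 5.47, 4.72, 5.28 and 5.42 CPM in exercise, against 9.56, 13.5, 8.04, 4.79 and 7.05 CPM in sedentary libraries. Sedentary 4 lay within the exercise range (log2 fold change -0.75, SE 0.25, edgeR adjusted p = 0.0722). Ndufaf2, a paralogue of Ndufa12 that acts late at the N module, had 2.80 ± 0.646 CPM in exercise and 4.63 ± 1.09 CPM in sedentary libraries (-0.72, edgeR adjusted p = 0.0675). Ndufaf3 and Ndufaf4 act together on the early Q module. Their log2 fold changes were -0.26 and -0.36 (edgeR adjusted p = 0.311 and 0.265), and that of Ndufaf4 was -0.01 in the 8 libraries.

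Ndufaf5 hydroxylates an arginine of NDUFS7, with Ndufaf8 as its partner. Ndufaf5 had 3.90 ± 0.165 CPM in exercise and 4.91 ± 1.28 CPM in sedentary libraries (edgeR adjusted p = 0.256), and Ndufaf8 had 4.93 ± 1.078 CPM in exercise and 7.43 ± 2.29 CPM in sedentary libraries (edgeR adjusted p = 0.131). Ndufaf6, needed for the early membrane arm, had 2.03 ± 0.392 CPM in exercise and 2.97 ± 1.05 CPM in sedentary libraries (edgeR adjusted p = 0.179). Ndufaf7, a mitochondrial arginine methyltransferase, was at 9.95, 9.76, 8.46, 10.6 and 8.98 CPM in exercise, against 7.71, 13.9, 9.43, 11.3 and 10.04 CPM in sedentary libraries. Sedentary 1 was the lowest of all 10 libraries and sedentary 2 the highest (log2 fold change -0.13, SE 0.17, edgeR adjusted p = 0.576).

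The balance of subunit to assembly factor transcripts varied most among the sedentary libraries. The summed CPM of the 39 subunit genes was 28.6, 24.8, 25.05, 24.2 and 21.3 times that of the 8 assembly factor genes in exercise 6 to 10. In sedentary 1 to 5 it was 38.2, 37.8, 26.4, 24.6 and 30.2 times. Sedentary 1 and 2 stood highest, and sedentary 3 and 4 lay within the exercise range. Summed, the assembly factors were at 46.2 to 49.8 CPM in exercise, against 52.7 to 89.2 CPM in sedentary libraries, with no overlap. Per kb of transcript, the median level of the subunits was 26.5 CPM per kb in exercise and 49.4 in sedentary libraries. That of the assembly factors was 3.82 CPM per kb in exercise and 5.95 in sedentary libraries. Lengths were those of the longest principal transcript in GENCODE M21, and the lengths behind the counts were not given in the sources used here.

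**Figure D5:**
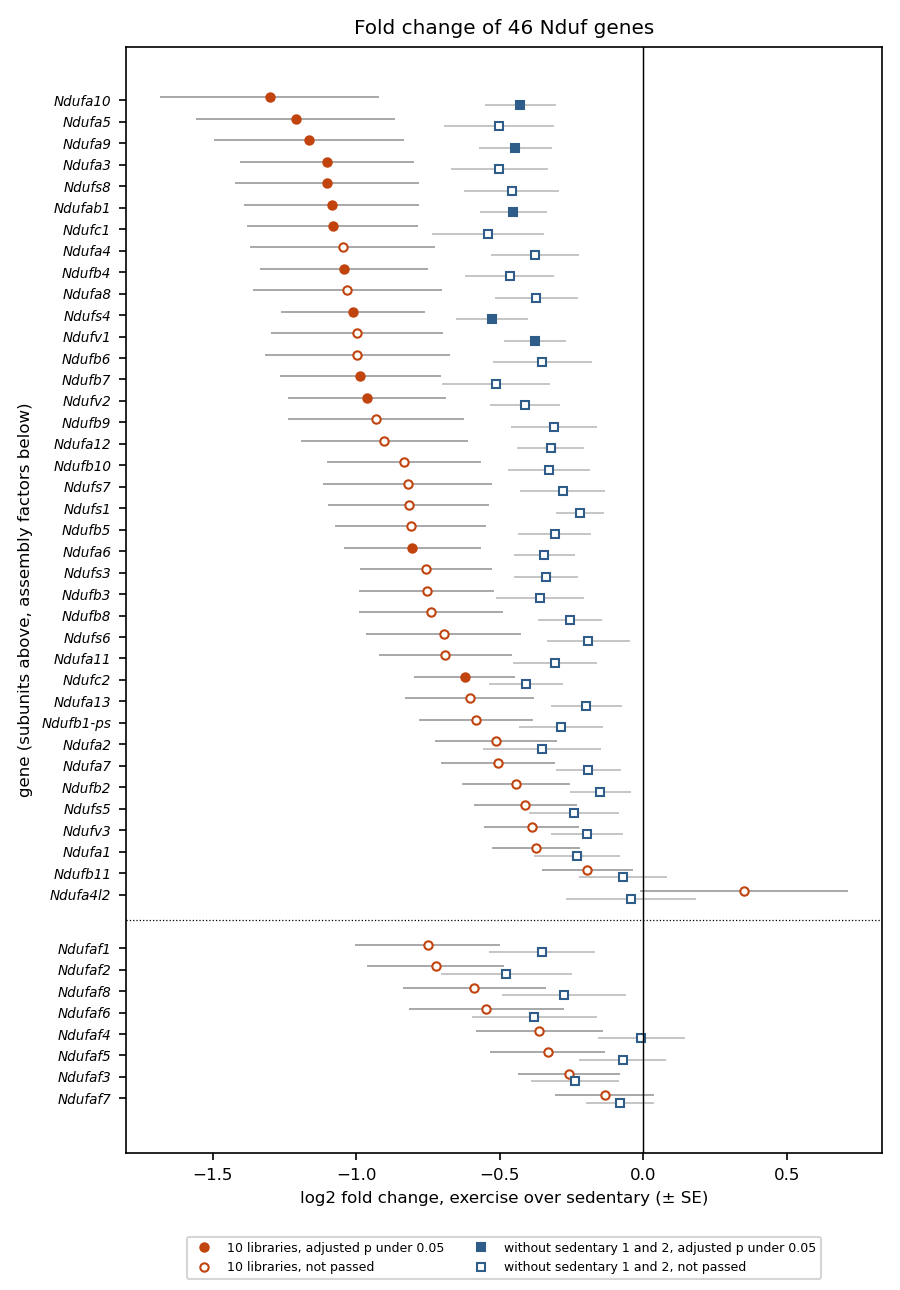
Log2 fold change, exercise over sedentary, of 46 Nduf genes with the SE. Circles give the fit of 10 libraries and squares the fit without sedentary 1 and 2; filled symbols passed at an adjusted p under 0.05, and subunits stand above assembly factors. With 10 libraries 13 subunits and 0 assembly factors passed, and in 8 libraries 5 and 0.

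Of the 10 assembly factors without an Nduf name, 9 were found by symbol, and 1 of these fell (11.1%), a share close to the background of 11.4% of all genes. Their median log2 fold change was -0.28, with all 9 values below 0 (50.0% of all genes). The gene that fell was Foxred1, an oxidoreductase-like factor, at 10.03 ± 1.05 CPM in exercise and 15.01 ± 2.89 CPM in sedentary libraries (log2 fold change -0.58, edgeR adjusted p = 0.0381). It did not pass in the 8 libraries (-0.36, edgeR adjusted p = 0.0696), nor without any 1 of 7 libraries (highest edgeR adjusted p = 0.106). The 7 mitochondrially encoded subunits (mt-Nd1 to mt-Nd6 and mt-Nd4l) did not pass in edgeR or DESeq2, where 11.4% and 14.9% of all genes were called lower. None of the 7 had an unadjusted p under 0.05 in edgeR, against 33.4% of all genes. They summed to 6529 to 9666 CPM in exercise libraries. They summed to 15752 and 14277 CPM in sedentary 1 and 2 and to 5820 to 7679 CPM in sedentary 3 to 5. Their median log2 fold change was -0.34 with all libraries and 0.34 in the 8 libraries, where that of the nuclear subunits remained below 0. In the 8 libraries 0 of the 7 passed in edgeR. There, 1 had an unadjusted p under 0.05, against 28.3% of all genes.

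Among 7 regulators of complex I genes, 2 fell with all libraries and with 8, against 11.4% and 8.68% of all genes. Esrra, the estrogen-related receptor that partners the coactivator PGC-1alpha, was at 14.5, 11.7, 14.4, 12.1 and 14.2 CPM in exercise, against 77.7, 120.3, 25.7, 20.9 and 32.2 CPM in sedentary libraries. All exercise libraries were below all sedentary ones (log2 fold change -2.05 with an SE of 0.46, edgeR adjusted p = 0.0186; in the 8 libraries -0.95, edgeR adjusted p = 0.00292). The call of Esrra was lost without any 1 of 3 libraries (highest edgeR adjusted p = 0.0544). Ppargc1a, which encodes PGC-1alpha, had log2 fold changes of -1.79 with all libraries and -0.81 with 8 (edgeR adjusted p = 0.0237 and 0.0166). Its call was lost without any 1 of 6 libraries (highest edgeR adjusted p = 0.0643). The genes of the factors whose motifs were searched did not pass, with log2 fold changes of -0.17 for Nrf1, -0.05 for Gabpa, -0.10 for Gabpb1 and 0.04 for Yy1 (edgeR adjusted p = 0.471 to 0.838), nor did Tfam, the mitochondrial DNA packaging factor (-0.49, edgeR adjusted p = 0.128).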

How the data were processed

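RNA-seq of 10 islet libraries was used as an estimated count per Ensembl gene, deposited by the authors, who per the submitters' processing notes used fastp and kallisto (no versions named). The genome build, annotation and strand setting were not given in the sources used here. Per the labels' protocols, libraries came from a stranded mRNA kit. Counts were rounded, since 12.6% of values differed from a whole number by more than 1e-06. Of 47 members, 14 had values that were not whole, so that their reads may be divided with other genes. In GENCODE M21, 20 members shared exon positions with another gene, mostly one on the opposite strand. Some of these, such as Ndufa11 and Ndufs3, had whole values in every library.

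The test was edgeR's quasi-likelihood test (edgeR 4.0.16, R 4.3.3) with group as the sole term. Low counts were removed by filterByExpr (at least 10, total at least 15). TMM scaling factors were 0.669 to 1.060 in exercise and 1.065 to 1.197 in sedentary libraries. Every exercise factor was thus below every sedentary one. Benjamini-Hochberg adjustment was made over 15298 genes at a threshold of 0.05. The SE of a log2 fold change was not taken from the model. It was the absolute log2 fold change divided by the square root of the quasi-likelihood F statistic. Log2 CPM used a prior count of 2. Alternatives were other scalings, filters, DESeq2 1.42.0, limma-voom 3.58.1, leaving out each library, and leaving out sedentary 1 and 2.

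The members and lists were chosen with earlier results of these data known. Modules were assigned from textbook structure. Named genes were the nuclear core subunits (results of 1 are not reported here, although it stays in all counts and medians), the Ndufaf genes, Ndufa4 and Ndufa4l2, other subunits past the threshold (at most 12), the extremes, and members past the threshold in the other lists; members named beyond this were chosen after their values were seen. The labels name no batch, day or litter.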

Additional observations from a re-analysis of the deposited data

Results flagged for a closer look

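Of 102 groups of 5 libraries, made of each reported member and each named regulator or factor in each condition and of 2 sums, 4 held a library far from the other 4, where chance gives about 1 in 20. In exercise 6, Ndufa11 stood at 30.7 CPM and Ndufs3 at 42.3 CPM, each well above the other exercise libraries. In exercise 10, Ndufab1 stood at 23.7 CPM, below the others at 27.1 to 28.3 CPM. In sedentary 2, the summed assembly factors stood at 89.2 CPM, above the other sedentary libraries.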

How the results depend on the processing

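With all 10 libraries edgeR called 1745 genes lower and 374 higher, and 13 subunits and 0 assembly factors lower. Scaling to library totals shifted the median of all genes to -0.34 (upper-quartile factors to 0.11) and gave 4408 lower and 159 higher genes, 37 subunits, 3 assembly factors, 5 other factors, 1 mitochondrially encoded subunit, a median for the assembly factors of -0.78, and summed exercise over sedentary ratios of 0.462 for subunits and 0.602 for assembly factors (0.579 and 0.755 with TMM). DESeq2 gave 2867 lower and 977 higher genes, 27 subunits and 2 assembly factors. Limma-voom gave 339 lower and 177 higher genes and 0 subunits, 0 other factors and 0 regulators. With no filter on low counts 0 other factors passed. Without sedentary 1 and 2 there were 644 higher genes, 5 subunits, 0 other factors and a subunit median of -0.34, and the log2 fold change of Ndufa4l2 changed sign to -0.0416. With 1 library left out, lower genes ran from 800 to 2721 and higher from 132 to 889. Subunits ran from 0 to 30, assembly factors and other factors each from 0 to 1, and regulators from 0 to 2. The medians ran from -0.95 to -0.54 for subunits and from -0.53 to -0.25 for assembly factors. No subunit or assembly factor was called higher in any of these fits. YY1 matches fell to 0.0% of member promoters in the shorter window because those matches lie outside it. Over all promoters the YY1 share fell from 2.75% to 0.52%. The cause of the other differences was not tested. Coa1 was not found by symbol. No paired analysis was possible because the groups share no replicate number.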
